A study of Mus musculus with 21 samples.

Results

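A set of 10 genes of the epithelial-mesenchymal transition (EMT) was followed through 21 mouse mammary tumors: the transcription factors Snai1, Snai2, Twist1, Twist2, Zeb1, Zeb2 and Prrx1, the cadherins Cdh1 and Cdh2, and vimentin (Vim). The genes were chosen by symbol, and all 10 were found among the 49652 genes counted in every tumor. In EMT, epithelial cells give up E-cadherin junctions and take on the filaments and motility of mesenchymal cells. Factors of the Snail, Twist and Zeb families bind E-box motifs (CANNTG) and repress Cdh1, the gene of E-cadherin, while N-cadherin (Cdh2) and the intermediate filament vimentin mark the mesenchymal state. In normal mammary tissue the same genes also have cell type patterns: Snai2 belongs to basal cells, Cdh1 to epithelium, and Zeb1, Zeb2, Twist1, Prrx1 and Vim are used by fibroblasts and other stromal cells.

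Bulk RNA-seq had been run on 12 RhoC cohort tumors (R), from R26(RhoC/+);FloxNeoNeuNT;MMTV-CreNLST mice, and on 9 control tumors (N). Of the controls, 7 came from Gata4(loxP/+);FloxNeoNeuNT;MMTV-CreNLST mice and 2, N-15 and N-17, from FloxNeoNeuNT;MMTV-CreNLST mice. All 21 tumors therefore carried activated Neu (NeuNT) targeted to the endogenous ErbB2 locus behind a floxed stop, and MMTV-CreNLST, a mammary Cre transgene thought to be weaker or less widespread than other MMTV-Cre lines. The RhoC cohort also carried a wildtype mouse RhoC cDNA linked to eGFP at Rosa26, likewise behind a floxed stop, so that both alleles were switched on in Cre-expressing mammary cells. The labels give no ages. The 9 controls came from 9 mice and the 12 RhoC tumors from 8 mice, counting R-18, whose label names no mouse, as its own: mouse P497 gave R-13, R-14, R-15 and R-16, and mouse N9255 gave R-6 and R-7. Pathology entries stand only in the study's sample table. They are used here to describe tumors and to leave tumors out of alternative fits, not as groups tested against each other.

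Read counts assigned to genes ranged from 47552423 to 100741339 per control tumor and from 47309780 to 85326903 per RhoC tumor. Rhoc itself, which the transgene encodes, was at 25.98 to 172 CPM (TMM-scaled read counts at a common library size) in controls, with a median of 50.7, and at 22.8 to 148 in the RhoC cohort (median 88.2), so it did not separate the cohorts. Control tumor N-1, entered as the only spindle cell tumor (SCT), had few transcripts of most fibroblast markers. The sum of its 11 fibroblast markers, which collagens dominate, ranked 20 of 21, while Dcn (150 CPM) ranked 4 and Dpp4 (21.1) ranked 5. Its sum of squamous keratinocyte markers ranked 2 of 21, with Krt10 (285 CPM), Krt1 (45.6) and Flg (82.9) at their highest in this tumor. N-1 is therefore set apart, and each result that rests on it is given with and without it.

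The promoters of 6 of the 10 genes stand in the RefSeq table for GRCm38.p6, each running from 250 bases before to 50 bases after a start site. Snai1, Twist1 and Vim are shown because they represent the Snail and Twist families and the mesenchymal filament, and because Twist1 and Vim belong to the genes that varied together across tumors. Capitals mark matches, on either strand, to the E-box CANNTG, to CCAAT and to TATAA. Of 32851 promoter windows, 72.3% hold CANNTG, 20.2% hold CACCTG (the form the Snail and Zeb factors prefer, CAGGTG on the other strand, which is itself a CANNTG match), 37.4% hold CCAAT and 24.9% hold TATAA.
Snai1 promoter, chr2:167537945-167538244, plus strand: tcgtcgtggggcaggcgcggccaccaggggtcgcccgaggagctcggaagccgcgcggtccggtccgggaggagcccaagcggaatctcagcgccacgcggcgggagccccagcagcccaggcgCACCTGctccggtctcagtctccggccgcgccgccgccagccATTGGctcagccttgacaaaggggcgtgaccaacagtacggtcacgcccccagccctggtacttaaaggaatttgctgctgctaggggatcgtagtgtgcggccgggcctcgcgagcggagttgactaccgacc
Twist1 promoter, chr12:33957421-33957720, plus strand: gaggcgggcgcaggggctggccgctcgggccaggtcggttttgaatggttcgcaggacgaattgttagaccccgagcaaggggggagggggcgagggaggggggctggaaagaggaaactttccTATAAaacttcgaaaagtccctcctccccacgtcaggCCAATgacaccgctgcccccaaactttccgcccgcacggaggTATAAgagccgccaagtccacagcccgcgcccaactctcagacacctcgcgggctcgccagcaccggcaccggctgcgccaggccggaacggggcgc
Vim promoter, chr2:13574061-13574360, plus strand: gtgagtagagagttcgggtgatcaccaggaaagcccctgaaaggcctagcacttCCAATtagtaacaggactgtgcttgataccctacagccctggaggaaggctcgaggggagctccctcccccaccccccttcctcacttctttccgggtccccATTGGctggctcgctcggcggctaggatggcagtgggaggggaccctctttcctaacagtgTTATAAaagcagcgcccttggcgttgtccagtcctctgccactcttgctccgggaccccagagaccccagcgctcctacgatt
The Snai1 window has 1 E-box, a CACCTG that begins 126 bases before the start, and a CCAAT match on the other strand that begins 84 bases before it. The Twist1 window has a CCAAT match at 89 bases and TATAA matches at 126 and 47 bases before the start. The Vim window has CCAAT matches at 196 and 94 bases and overlapping TATAA matches, 1 on each strand, at 33 and 32 bases before the start. None of the Twist2, Prrx1, Zeb2, Twist1 and Vim windows holds a CANNTG match, which says only that these letters are not in these windows.

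Levels were compared between genes on the deposited FPKM scale (fragment counts divided by gene length and by library size). Vim (226 ± 120 FPKM, mean ± SD, n = 21) and Cdh1 (179 ± 48.1) stood far above the rest. They were followed by Prrx1 (7.72 ± 5.13), a homeobox factor of mesenchymal cells, Zeb2 (7.08 ± 4.17), Twist1 (6.82 ± 8.11), Snai2 (5.71 ± 8.13), Cdh2 (3.51 ± 5.45), Zeb1 (2.89 ± 1.65), Snai1 (2.20 ± 1.31) and Twist2 (0.616 ± 1.08). Of the 9 neighbouring pairs in this order, 2 differed in a two-sided exact sign test over tumors: Cdh1 was above Prrx1 in 21 of 21 tumors (adjusted p = 8.6e-06) and Snai1 above Twist2 in 20 of 21 (adjusted p = 9.4e-05, both over the 9 pairs). For the other 7 pairs the order was not resolved, including Vim over Cdh1, which held in 13 of 21 tumors (unadjusted exact p = 0.383). The tumors are not fully independent in this test, since 2 mice gave 6 of them. These are levels of whole tumors.

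Each gene was compared between the RhoC cohort and controls with edgeR's quasi-likelihood test over all 19315 genes that passed the count filter, which included 10 of the 10. None of the 10 passed an adjusted p of 0.05, where 0.223% of all genes tested did, and the count was also 0 with DESeq2. At an unadjusted p under 0.05 there was 1, Zeb2, where 20.5% of all genes tested passed. Log2 fold changes (RhoC over control) were positive for 4 genes and negative for 6, the ranges of the cohorts overlapped for all 10, and an exact two-sided permutation test on log2 CPM over 293930 labelings gave no p under 0.05. In bulk tumors, fewer cells of a type and less RNA per cell cannot be told apart.

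**Figure D1:**
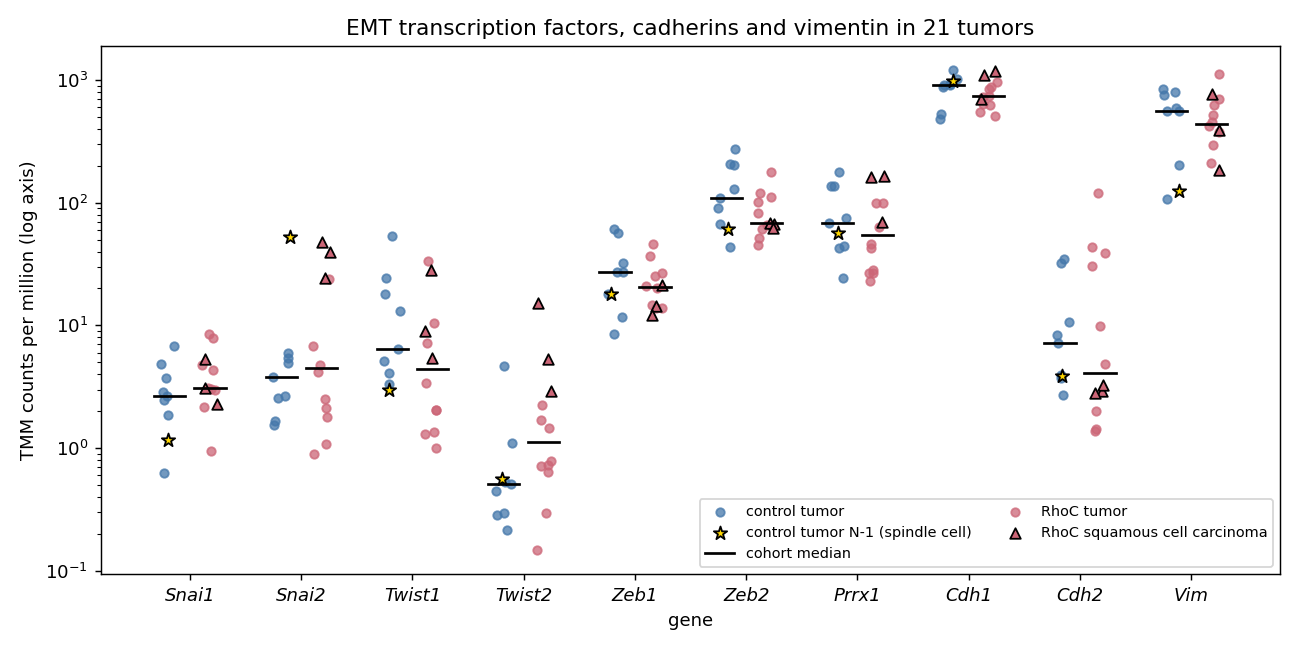
TMM CPM (log axis) of the 10 genes in each tumor, controls in blue and RhoC tumors in red, with the cohort median as a bar. The star is N-1, which is highest for Snai2 (52.9 CPM), and the triangles are the 3 squamous cell carcinomas, at 24.4 to 47.7 CPM for Snai2.

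**Figure D2:**
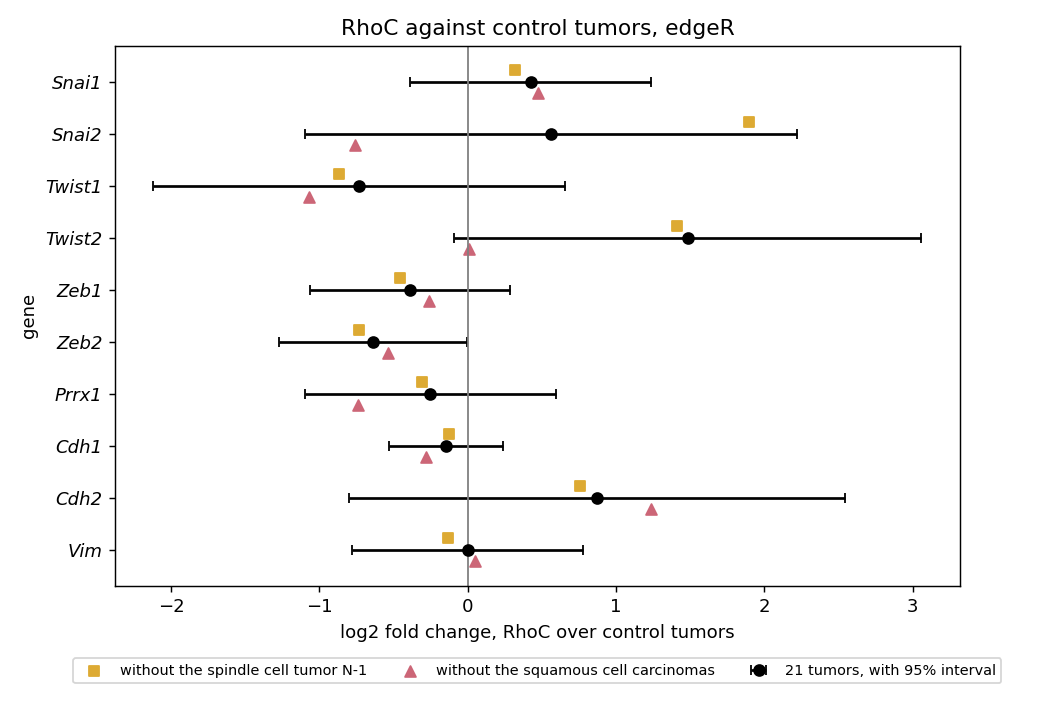
Log2 fold change of each gene, RhoC over control, from edgeR, with its 95% interval over 21 tumors (black), and the estimate without N-1 (squares) or without the 3 squamous cell carcinomas (triangles). Snai2 runs from -0.76 to 1.90 between these estimates and Twist2 drops to 0.01 without the carcinomas, while Cdh1 and Zeb1 move little.

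Snai1 (ENSMUSG00000042821.7, chr2:167538195-167542814), the zinc finger repressor first tied to Cdh1, was low in both cohorts. Controls ran from 0.630 CPM in N-4 through a median of 2.66 to 6.80 in N-15, and RhoC tumors from 0.954 in R-2 through 3.09 to 8.55 in R-10. The cohorts overlapped over nearly their whole ranges, with 10 of 12 RhoC tumors inside the control range. For Snai1 this gave a log2 fold change of 0.42 (SE 0.39, 95% interval -0.39 to 1.23, edgeR adjusted p = 0.551; exact permutation p = 0.248). The 2 controls with no Gata4 loxP allele, at 4.83 and 6.80 CPM, lay above the 0.630 to 3.77 of the 7 that carry it, and against those 7 alone the log2 fold change was 0.87 (edgeR adjusted p = 0.196). At 30 to 495 reads per tumor, Snai1 rests on few reads.

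Snai2 (Slug, ENSMUSG00000022676.7, chr16:14705852-14709385), a Snail family factor of basal mammary cells, fell into separate levels. In 16 tumors it lay between 0.897 and 6.87 CPM, and in 5 it was at 23.9 or more: R-12 (23.9), R-14 (24.4), R-6 (39.9), R-13 (47.7) and N-1 (52.9). Of these 5, 3 are the only tumors entered as squamous cell carcinoma (SCC), all from the RhoC cohort, R-12 is entered as complex adenocarcinoma (CAC), and N-1 is the tumor entered as spindle cell. Cohort medians were close, at 3.83 CPM in controls and 4.48 in RhoC tumors. The log2 fold change was 0.56 (SE 0.80, 95% interval -1.10 to 2.22, edgeR adjusted p = 0.714; exact permutation p = 0.613). Its direction rested on a few tumors: it was 1.90 without N-1 (edgeR adjusted p = 0.193) and -0.76 without the 3 SCC (adjusted p = 0.640). With counts summed per mouse it was 0.0033 (adjusted p = 0.999).

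Within mice that gave several tumors, Snai2 differed by pathology entry. In P497 the SCC R-13 and R-14 had 47.7 and 24.4 CPM, against 4.17 in R-15 (solid nodular carcinoma or poorly differentiated adenocarcinoma) and 2.50 in the CAC R-16. In N9255 the SCC R-6 had 39.9 CPM and the CAC R-7 had 2.12. The 5 tumors with high Snai2 also had the 5 highest sums of 9 basal and myoepithelial markers, at 3041 to 17156 CPM against 35.8 to 1605 in the other 16. Their squamous keratinocyte sums ran from 2.92 to 583 CPM, against 0.706 to 677 in the others, where R-2 (entered as poorly differentiated adenocarcinoma with adenomyoepithelioma) had the 677. R-12 was thus high in basal markers and, at 2.92 CPM, not in keratinocyte markers. The part of these cells in the Snai2 level was not tested.

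Twist1 (ENSMUSG00000035799.6, chr12:33957671-33959829), a basic helix-loop-helix factor of embryonic mesenchyme, was spread over a 53.1-fold range. Controls ran from 2.98 CPM in N-1 through a median of 6.45 to 53.0 in N-3, and RhoC tumors from 0.999 in R-1 through 4.40 to 33.2 in R-12. The 5 lowest tumors (R-1, R-21, R-18, R-2 and R-7, at 0.999 to 2.05 CPM) were all RhoC tumors, while R-12 and R-6 (28.3), also RhoC tumors, ranked 2 and 3 of 21. RhoC over control gave a log2 fold change of -0.73 (SE 0.67, 95% interval -2.12 to 0.65, edgeR adjusted p = 0.548; exact permutation p = 0.181). It was -0.15 without N-3 and -1.16 without R-12, -1.07 without the 3 SCC, and -1.19 with mouse as a random effect.

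Twist2 (ENSMUSG00000007805.4, chr1:91801461-91848028), the related dermal and mesenchymal factor, was the lowest of the 10 genes. Controls ran from 0.217 CPM through a median of 0.509 to 4.69 in N-17, and RhoC tumors from 0.148 through 1.13 to 15.4 in R-13. Of 12 RhoC tumors, 10 were above the control median. The log2 fold change was 1.48, with an interval that reached below 0 (SE 0.76, 95% interval -0.09 to 3.06, edgeR adjusted p = 0.271; exact permutation p = 0.129). The 3 SCC, at 15.4 (R-13), 5.36 (R-6) and 2.90 CPM (R-14), were among the 4 highest tumors, and without them the log2 fold change was 0.01 (edgeR adjusted p = 0.997). It was 0.69 with counts summed per mouse (edgeR adjusted p = 0.679) and 0.83 with mouse as a random effect (limma adjusted p = 0.653). Without R-13 alone it was 0.68, and without N-17 it was 2.44 (adjusted p = 0.0945). N-17 had the highest sums of 21 tumors for skeletal muscle (4238 CPM), endothelial (725) and adipocyte markers (628), and the highest fibroblast sum of the controls (8884), and their part was not tested. Twist2 had 13 to 735 reads per tumor, and 2 annotated genes inside its span, Gm29100 (antisense) and Gm29101, averaged 3.90 and 3.67 reads.

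Prrx1 (ENSMUSG00000026586.16, chr1:163245119-163313710), a paired-related homeobox factor of fibroblasts and limb mesenchyme, ran from 24.3 CPM through a median of 68.1 to 177 in N-4 among controls. RhoC tumors ran from 23.1 through 54.8 to 166 in R-13. High and low tumors were found in both cohorts, with R-6 (162) close to R-13 although they came from different mice. For Prrx1 the log2 fold change was -0.25 (SE 0.41, 95% interval -1.10 to 0.59, edgeR adjusted p = 0.750; exact permutation p = 0.462), and -0.74 without the 3 SCC (adjusted p = 0.368).

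Zeb1 (ENSMUSG00000024238.15, chr18:5591860-5775467) and Zeb2 (ENSMUSG00000026872.18, chr2:44983632-45117395) are zinc finger and homeodomain repressors of Cdh1 that miR-200 microRNAs hold down in epithelium. Zeb1 ran from 8.50 CPM through a median of 27.2 to 61.3 in controls and from 12.1 through 20.5 to 46.3 in RhoC tumors. All 12 RhoC tumors lay inside the control range. Its log2 fold change was -0.39 (SE 0.32, 95% interval -1.06 to 0.28, edgeR adjusted p = 0.507; exact permutation p = 0.481). Zeb2 ran from 43.2 CPM in N-9 through a median of 109 to 274 in N-4 among controls, and from 45.3 in R-18 through 67.9 to 178 in R-10 among RhoC tumors. All 12 RhoC tumors again lay inside the control range, and 3 of them were above the control median. Its log2 fold change of -0.64 (SE 0.31, 95% interval -1.27 to -0.005) had the smallest p of the 10 genes, which did not hold after adjustment (edgeR adjusted p = 0.241) or in the exact permutation test (p = 0.131). Without N-4 it was -0.44. Zeb2os, annotated on the opposite strand, had 30 to 408 reads per tumor against 2181 to 14168 for Zeb2, and since the strand setting of the counting is not given in the sources used here, reads of the pair may not be separable.

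Cdh1 (ENSMUSG00000000303.12, chr8:106603351-106670246), E-cadherin of epithelial junctions, was the steadiest of the 10 genes. Controls ran from 482 CPM in N-17 through a median of 906 to 1205 in N-9, and RhoC tumors from 506 in R-18 through 734 to 1182 in R-13. Across all 21 tumors the highest value was 2.50 times the lowest, against 6.35-fold (Zeb2) to 104-fold (Twist2) for the other 9 genes, so no tumor was without E-cadherin mRNA. The log2 fold change was -0.15 (SE 0.19, 95% interval -0.53 to 0.24, edgeR adjusted p = 0.671; exact permutation p = 0.440). As a fold, the interval ran from 0.691 to 1.18.

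Cdh2 (ENSMUSG00000024304.14, chr18:16588877-16809246), N-cadherin of neural and mesenchymal cells, had separate levels like Snai2 but in other tumors. In 15 tumors it lay between 1.37 and 10.7 CPM, and in 6 it was at 30.4 or more: R-16 (30.4), N-4 (32.0), N-8 (34.5), R-15 (39.1), R-10 (43.8) and R-12 (120). Of the 5 tumors entered as CAC, 4 were in this high set (N-4, R-10, R-12 and R-16), and R-7 (9.83 CPM) ranked 8 of 21. The 3 SCC were at 2.82 to 3.27 CPM and the 3 solid nodular carcinomas (N-7, N-9 and R-1) at 2.02 to 3.93. R-12 was the only tumor in the high sets of both Snai2 and Cdh2. The plot of Snai2 against Cdh2 shows both sets.

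**Figure D3:**
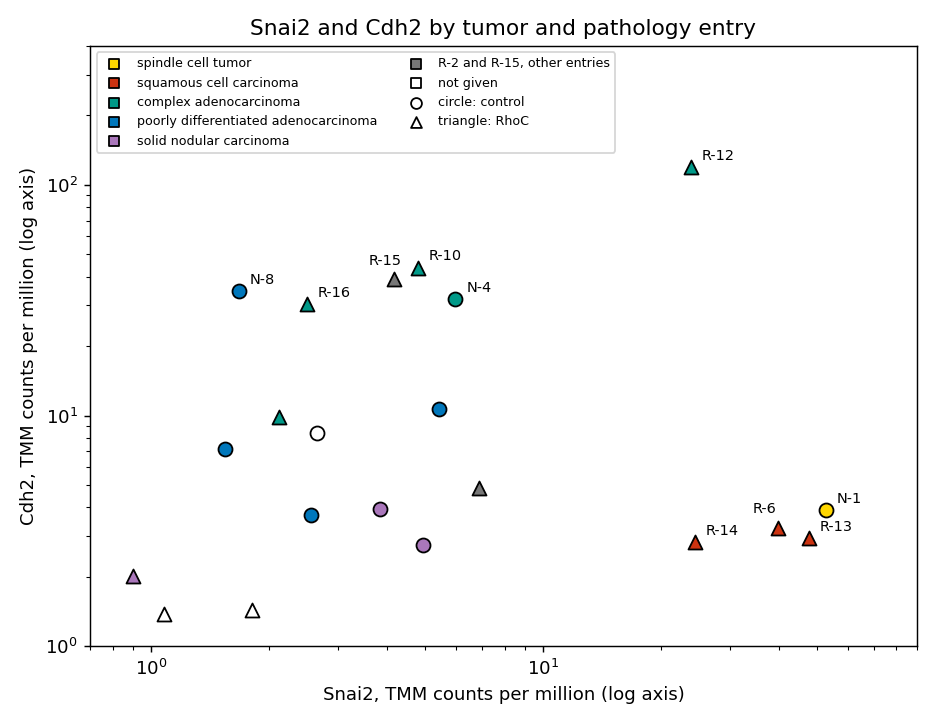
Snai2 (x) and Cdh2 (y) in TMM CPM, both log axes, for each of 21 tumors, colored by pathology entry (circles control, triangles RhoC). The 3 squamous cell carcinomas and N-1 lie at the lower right, with Snai2 of 24.4 CPM or more and Cdh2 under 4, and 4 of 5 complex adenocarcinomas lie at Cdh2 of 30.4 CPM or more.

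The cohort comparison of Cdh2 changed sign with the measure used. Control tumors ran from 2.74 CPM through a median of 7.17 to 34.5, and RhoC tumors from 1.37 through 4.06 to 120. The edgeR log2 fold change was 0.87 (SE 0.80, 95% interval -0.80 to 2.54, adjusted p = 0.551), while the difference in mean log2 CPM was -0.06 (exact permutation p = 0.947). Without R-12 alone the edgeR value was 0.12. Within mouse P497 the SCC R-13 and R-14 had 2.95 and 2.82 CPM against 39.1 in R-15 and 30.4 in R-16, and within N9255 the SCC R-6 had 3.27 against 9.83 in the CAC R-7. The 6 tumors with high Cdh2 had pericyte and smooth muscle marker sums of 646 to 962 CPM, against 368 to 882 in the other 15, and macrophage sums of 804 to 1913 against 319 to 1760. The part of these cells in the Cdh2 level was not tested.

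Vim (ENSMUSG00000026728.9, chr2:13573927-13582826), the intermediate filament of mesenchymal cells, had equal means in both cohorts, 505 ± 263 CPM in RhoC tumors (n = 12) and 505 ± 291 in controls (n = 9). Controls ran from 108 CPM in N-9 through a median of 560 to 847 in N-8, and RhoC tumors from 186 in R-6 through 439 to 1111 in R-12. The log2 fold change was -0.0005 (SE 0.37, 95% interval -0.78 to 0.78, edgeR adjusted p = 0.9996; exact permutation p = 0.702). As a fold, the interval ran from 0.584 to 1.71, so smaller differences could not be resolved with these tumors. The lowest Vim was found in N-9, a solid nodular carcinoma, and in N-1 (125 CPM).

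N-1, the tumor entered as spindle cell, was thus low in Vim, Snai1 and Zeb2. Its Vim ranked 20 of 21, Snai1 (1.16 CPM) 19, Zeb2 (61.2) 17, Twist1 (2.98) 16, Zeb1 (18.1) 14 and Cdh2 (3.88) 13. Its Cdh1, at 989 CPM, ranked 5. Its Vim was 0.217 times, and its Cdh1 1.09 times, the median of the 8 other controls. Prrx1 (56.7 CPM) ranked 12 and Twist2 (0.563) 13, at 0.790 and 1.17 times the median of the other controls. Snai2 ranked 1, at 16.3 times that median, beside a split among the 9 basal and myoepithelial markers. Trp63 (415 CPM) ranked 3, and the keratins Krt5 (1255), Krt14 (868) and Krt17 (466) each ranked 5. Of the contractile genes, Mylk (29.9 CPM) ranked 17, Cnn1 (0.272) 18 and Myh11 (2.78) 19, the oxytocin receptor gene Oxtr (1.40) ranked 17, and Lgr5 (2.41) ranked 10. With 1 tumor of this entry no comparison could be tested.

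Across tumors, several of the mesenchymal genes varied together. Correlations were computed on log2 CPM for all 45 pairs of the 10 genes, with permutation p-values adjusted over the 45, and the 28 pairs without Snai2 and Cdh2 are given, since those genes fell into separate levels. Of these 28, 7 passed on both Pearson's r and Spearman's rho, and all 7 were positive. Zeb1 and Zeb2 had r = 0.85 and rho = 0.78 (adjusted permutation p = 0.00045 for r and 0.00135 for rho), with r = 0.77 without the 2 tumors of most extreme Zeb1. The correlation was 0.90 within controls, 0.77 within the RhoC cohort and 0.86 over 17 mouse means. Twist1 and Prrx1 had r = 0.77 and rho = 0.76 (adjusted permutation p = 0.0018 and 0.00165), with r = 0.65 within controls and 0.83 within the RhoC cohort. Zeb2 and Vim had r = 0.67 and rho = 0.74 (adjusted permutation p = 0.00873 and 0.00281), and Zeb1 and Vim r = 0.65 and rho = 0.70 (adjusted permutation p = 0.0119 and 0.00477). Leaving out the 2 most extreme tumors gave 0.76 for Twist1 and Prrx1, 0.69 for Zeb2 and Vim, and 0.66 for Zeb1 and Vim.

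The remaining 3 pairs joined Zeb2 to Twist1 and both Zeb genes to Prrx1. Zeb2 and Twist1 had r = 0.63 and rho = 0.69 (adjusted permutation p = 0.0129 and 0.00502), with r = 0.58 without the 2 most extreme tumors. Zeb2 and Prrx1 had r = 0.68 and rho = 0.68 (adjusted permutation p = 0.00866 and 0.00572), and 0.57 without the 2 most extreme tumors. Within cohorts that r was 0.96 in controls and 0.43 in RhoC tumors. Zeb1 and Prrx1 had r = 0.60 and rho = 0.58 (adjusted permutation p = 0.0244 and 0.0256), and 0.46 without the 2 most extreme tumors, with 0.95 in controls and 0.25 in RhoC tumors. The differences between cohorts in these correlations were not tested.

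**Figure D4:**
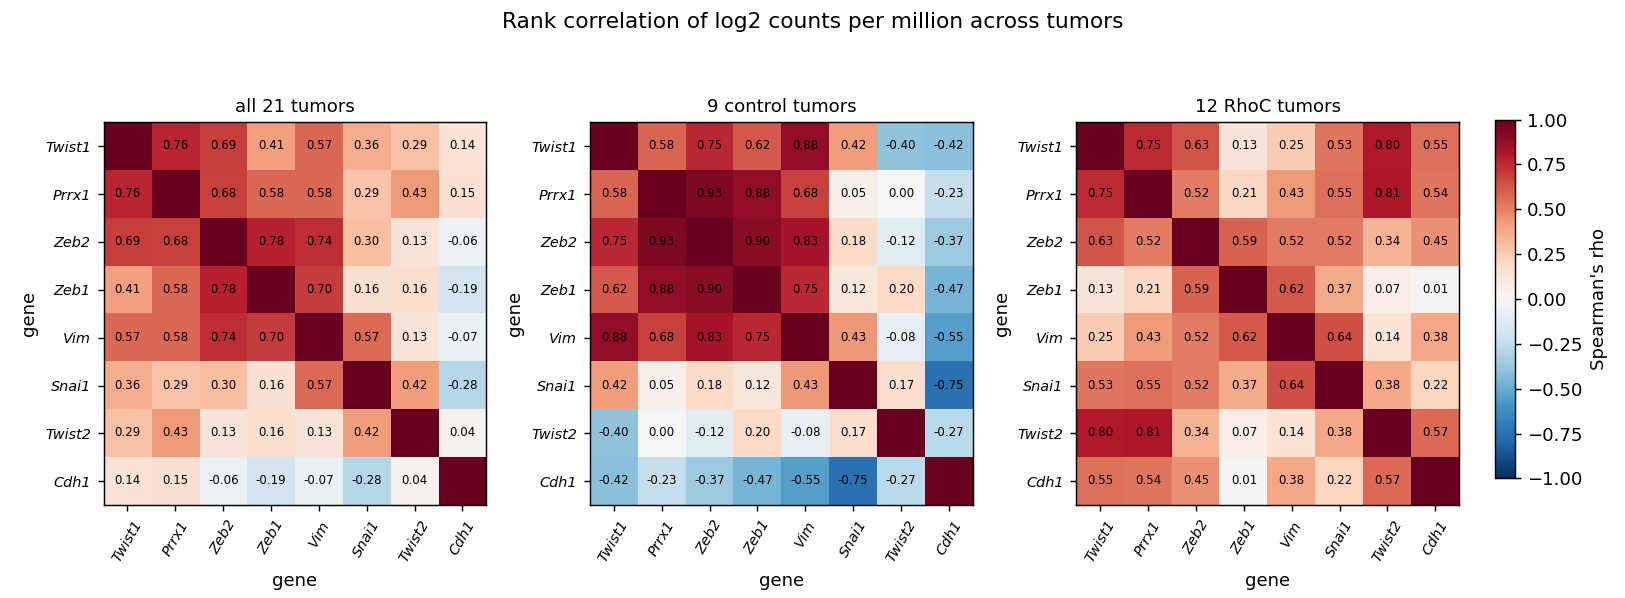
Spearman's rho between log2 CPM of 8 genes over all 21 tumors (left), 9 controls (middle) and 12 RhoC tumors (right), red positive and blue negative, with each value printed. Twist1, Prrx1, Zeb2, Zeb1 and Vim form a positive block on the left. The Cdh1 row is negative in controls and positive in RhoC tumors, though only 0.01 for Zeb1 in RhoC tumors.

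Among the pairs without Snai2 and Cdh2, no relation of Cdh1 to the repressors or to Vim was detected over all tumors. None of its 7 pairs passed, with r = 0.09 for Twist1, 0.15 for Twist2 and 0.10 for Prrx1 (adjusted permutation p = 0.820, 0.706 and 0.794), and r = -0.14 for Vim, -0.15 for Zeb2, -0.29 for Zeb1 and -0.19 for Snai1 (adjusted permutation p = 0.709, 0.706, 0.376 and 0.646). The pooled values joined cohorts of opposite sign. All 7 were negative within controls, as in -0.59 for Vim, -0.59 for Zeb2 and -0.55 for Snai1. Within the RhoC cohort all 7 were positive, at 0.47, 0.25 and 0.24 for the same genes but only 0.02 for Zeb1. The Snai2 pair, left out above because Snai2 fell into separate levels, had r = 0.46 with Cdh1 (adjusted permutation p = 0.0914). It was positive in both cohorts, at 0.18 within controls and 0.71 within the RhoC cohort. These within-cohort values rest on 9 and 12 tumors, and the difference between cohorts was not tested.

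Zeb1, Zeb2, Vim and Prrx1 also rose, and Twist2 rose and Cdh1 fell, with markers of other cell types. These relations were computed after the data had been seen. Here a marker mean is the mean log2 CPM of the genes of a list that passed the count filter, not their summed CPM. No marker mean passed for Twist1, whose r with fibroblast markers was 0.38 (rho adjusted permutation p = 0.188, r adjusted permutation p = 0.233). Of 96 pairs of marker mean and gene (again without Snai2 and Cdh2), 14 passed on both measures after adjustment over all 120. Zeb1 had r = 0.81 with the mean of 9 endothelial markers (rho = 0.72, adjusted permutation p = 0.0006 for r), and 0.77 with the mean of 11 fibroblast markers. Zeb2 had r = 0.78 with 9 macrophage markers (rho = 0.77, adjusted permutation p = 0.00103 for r) and 0.76 with fibroblast markers. Vim had r = 0.79 with 6 pericyte and smooth muscle markers (rho = 0.74, adjusted permutation p = 0.0006 for r) and 0.73 with macrophage and with endothelial markers. Prrx1 had r = 0.64 with fibroblast markers (rho = 0.61, adjusted permutation p = 0.0105 for r). Without the 2 tumors of most extreme marker mean these r were 0.69, 0.66, 0.77, 0.72, 0.73, 0.64, 0.74 and 0.55 in the same order. None of the markers in these 4 lists was at 0 in any tumor. Within cohorts, Vim and macrophage markers had r = 0.95 in controls and 0.37 in RhoC tumors. For Vim it was 0.84 and 0.75 with pericyte and smooth muscle markers, and 0.69 and 0.82 with endothelial markers. These differences between cohorts were not tested. Twist2 had r = 0.66 with basal and myoepithelial markers (rho = 0.63, adjusted permutation p = 0.0105 for r), at 0.12 within controls and 0.84 within the RhoC cohort, and 0.58 without the 2 tumors of most extreme marker mean. Cdh1 had the only negative relation among the 14, with adipocyte markers (r = -0.64, rho = -0.58, adjusted permutation p = 0.0116 for r), at -0.79 within controls and -0.52 within the RhoC cohort, and -0.50 without the 2 most extreme tumors. Of the 9 basal markers 1, Cnn1, was at 0 in at least 1 tumor, as were 5 of the 6 adipocyte markers. Only 2 of those 6, Cfd and Fabp4, passed the count filter and entered the adipocyte mean. Cfd was at 0 in at least 1 tumor of each cohort. The part of these cells in the Twist2 and Cdh1 levels was not tested.

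**Figure D5:**
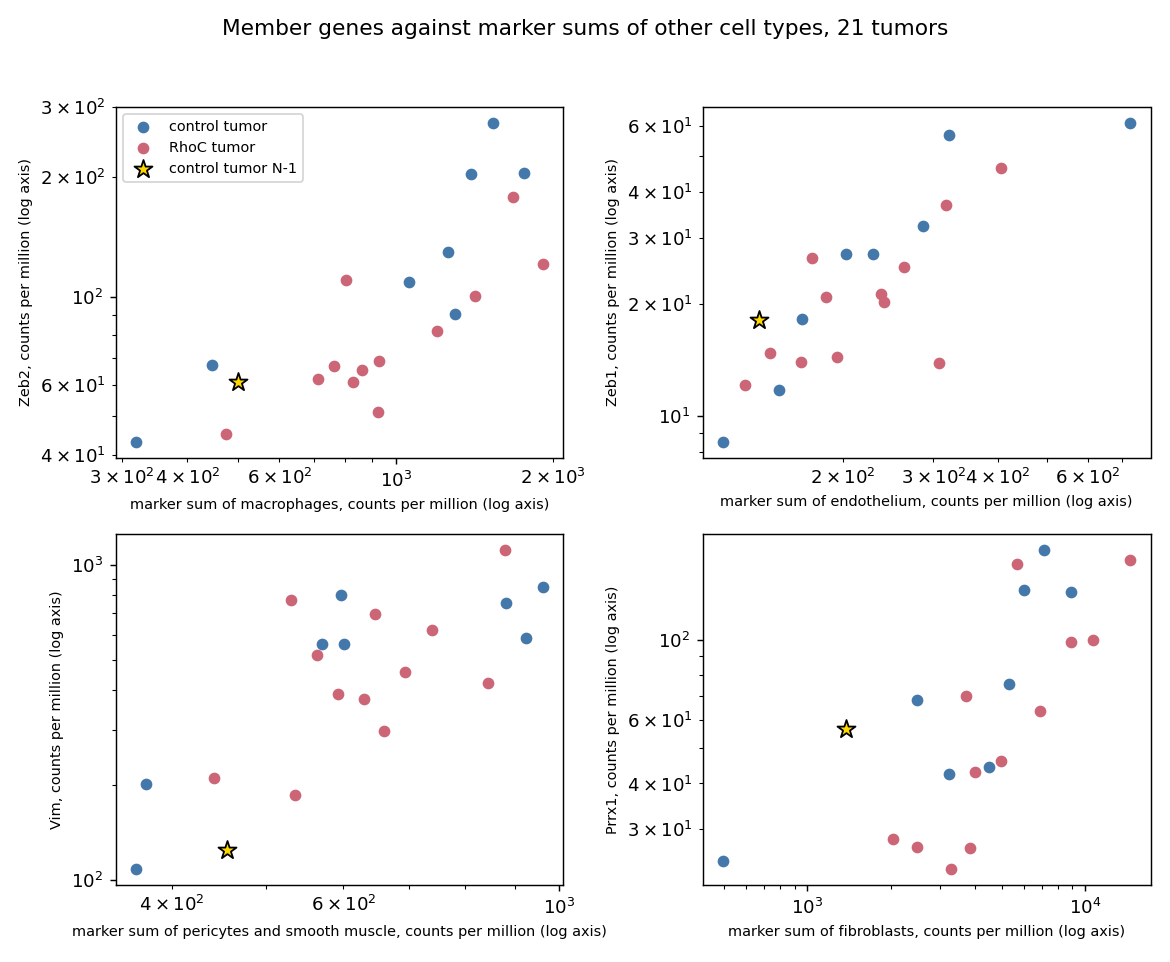
CPM of Zeb2, Zeb1, Vim and Prrx1 (y) against the summed CPM of macrophage, endothelial, pericyte and smooth muscle, and fibroblast markers (x), all log axes, 1 point per tumor (blue control, red RhoC, star N-1). In each panel the gene tends to be higher where the marker sum is higher. The r of 0.78, 0.81, 0.79 and 0.64 given in the text use the mean log2 CPM of the markers, not the plotted sums.

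Taken as summed CPM, the markers overlapped between the cohorts. Fibroblast markers ran from 498 to 8884 CPM in controls (median 4491) and from 2034 to 14516 in RhoC tumors (median 4493), and macrophage markers from 319 to 1760 (median 1258) and from 474 to 1913 (median 895). Endothelial markers ran from 117 to 725 CPM in controls and from 129 to 406 in RhoC tumors, and pericyte and smooth muscle markers from 368 to 962 and from 442 to 879. Basal markers had medians of 172 and 373 CPM and keratinocyte markers of 2.31 and 2.85. Of 11 luminal markers, 0 had a positive log2 fold change (median -0.30) and none was called. Of 9 macrophage markers, 4 had a positive log2 fold change (median -0.06) and none was called. The part of macrophages, fibroblasts and endothelial cells in the Zeb2 difference was not tested.

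Other genes of the EMT program were read from lists, which are described by counts beside all genes tested, of which 49.6% were positive with a median log2 fold change of -0.01. Of 23 other EMT transcription factors, 22 were tested and none was called by edgeR. Their log2 fold changes were positive for 13, with a median of 0.09. At an unadjusted p under 0.05, 4 were higher and 2 lower, where 2033 of the 19315 genes tested were higher and 1918 lower. Hmga2, an architectural chromatin protein, had a log2 fold change of 4.23 (SE 1.42, edgeR adjusted p = 0.124), from 1.60 to 32.9 CPM in controls and from 0.159 to 920 in RhoC tumors. The cohorts overlapped, and DESeq2 called the gene (adjusted p = 0.00474).

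Among these EMT lists, cell type markers aside, mesenchymal filament and surface genes were most often positive. They were positive for 12 of 17, with a median log2 fold change of 0.51, and none was called by edgeR. Axl, a receptor kinase tied to mesenchymal tumor cells, had a log2 fold change of 1.32 (SE 0.41, edgeR adjusted p = 0.103), at 54.0 to 171 CPM in controls and 71.9 to 991 in RhoC tumors (DESeq2 adjusted p = 0.0283). Lgals1, galectin-1, had 1.29 (SE 0.51, edgeR adjusted p = 0.173). At an unadjusted p under 0.05, 3 of the 17 were higher and 0 lower, where 20.5% of all genes tested passed in either direction. Vim itself had equal means in the cohorts, as given above.

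Epithelial transcription and splicing factors, the opposing side, were positive for 6 of 15 (median -0.02) and none was called by edgeR. At an unadjusted p under 0.05, 1 was higher and 1 lower, where 20.5% of all genes tested passed in either direction. Foxa1, a luminal pioneer factor, had a log2 fold change of 4.03 (SE 1.36, edgeR adjusted p = 0.126), with 0.0166 to 8.76 CPM in controls and 0 to 168 in RhoC tumors (DESeq2 adjusted p = 0.00998). Ehf, an epithelial ETS factor, had -1.02 (SE 0.38, edgeR adjusted p = 0.154), with means of 856 and 422 CPM in controls and RhoC tumors.

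Junction and repressor genes were called neither by edgeR nor by DESeq2. Of the other cadherins, 10 of 12 were tested and 6 were positive (median 0.14), with Cdh4 (-0.93, edgeR adjusted p = 0.275) and Cdh10 (1.94, adjusted p = 0.296) at the smallest p. Of 17 catenin and nectin complex genes 16 were tested and 10 were positive (median 0.09). Pkp4, an armadillo protein of junctions, had -0.49 (SE 0.16, edgeR adjusted p = 0.112) and Arvcf, a p120-catenin relative, 0.39 (SE 0.16, adjusted p = 0.179). Of 14 genes of the complexes that silence or cleave E-cadherin 8 were positive (median 0.03). The smallest p were those of the corepressor Ctbp1 (0.26, edgeR adjusted p = 0.228) and of Suz12 of the Polycomb complex (-0.29, adjusted p = 0.241).

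The genes whose pattern was most like each of the 10 were found by Spearman's rho over 21 tumors among 15436 tested genes. They are given as a description. Zeb2 was followed by Slc8a1 (0.93) and Fap (0.93), and Prrx1 by Maf (0.94), Mcub (0.92) and Lilrb4a (0.89). Zeb1 was followed by Ddr2 (0.87), Runx1t1 (0.86) and Adgrf5 (0.86), and Vim by Aoc3 (0.85), Cd248 (0.84) and Cygb (0.84). Cdh2 also had Fap at the top (0.84), with Itga11 (0.84) and Fam217b (0.84). Fap and Cd248 are known surface proteins of fibroblasts and pericytes.

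Snai2 was followed by Gem (0.90), Efcab1 (0.90) and D16Ertd472e (0.88), Snai1 by Adgra2 (0.81), Rcn3 (0.80) and Pilrb1 (0.80), and Twist1 by Lilrb4a (0.86), Cd300ld (0.86) and Sh3glb1 (0.85). Twist2 was followed by Slc52a3 (0.90), Nbl1 (0.87) and Grin2d (0.86). Cdh1 had the weakest partners, Klk7 (0.81), Mmp12 (0.79) and Eif1a (0.79). These values share libraries and were the highest of 15436, so they carry no test.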

How the data were processed

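Total RNA from 21 mammary tumors had been sequenced by the authors as stranded, ribosomal RNA-depleted paired-end libraries. The authors trimmed reads (Trim Galore 0.5.0), aligned them to GRCm38.p6 (STAR 2.6.0c) and deposited raw counts of uniquely mapped reads per gene (htseq-count 0.6.1p2), with reads on more than 1 gene discarded. They also deposited FPKM values beside their own DESeq2 and edgeR comparisons, whose fold changes and p-values were not used. The annotation release and strand setting are not given in the sources used here.

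The 10 genes and the lists were chosen with earlier results of these data known. Counts were scaled by TMM in edgeR 4.0.16 (R 4.3.3) after filterByExpr, and log2 CPM used a prior count of 2. RhoC and control tumors were compared with the quasi-likelihood test over 19315 genes with Benjamini-Hochberg adjustment, and single genes also with exact permutation over 293930 labelings, 2-sided. Correlation p-values used 100000 permutations and cannot fall below about 0.00001. Tumors of 1 mouse were treated as separate, so p-values are too small where they resemble each other. The test was tried first on simulated data. FPKM served only to order genes by level. Named genes were all 10, the called genes of each list or else the 2 of smallest p, and the 3 most alike genes, and some items that this rule names are not reported here. Promoter windows came from RefSeq (GRCm38.p6).

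Alternatives were library size scaling, DESeq2 1.42.0, no count filter, counts summed per mouse, voom (limma 3.58.1) with mouse as a random effect, and fits without sets of tumors or without each tumor. Tumor numbers name tumors, same-numbered tumors of the cohorts came from different mice, and the deviations of the 4 same-numbered pairs correlated at -0.24 to 0.02, so the numbers do not pair the samples.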

Additional observations from a re-analysis of the deposited data

Results flagged for a closer look

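In 3 of the 10 genes, the highest of the 9 control tumors stood apart from the rest by Dixon's gap test on CPM, in which chance flags about 1 in 20 groups where values are normally distributed. Levels in CPM are skewed, so this rate need not hold here. Snai2 was at 52.9 CPM in N-1, where the next control was at 5.99. Twist1 was at 53.0 CPM in N-3, next to 24.1. Twist2 was at 4.69 CPM in N-17, next to 1.11. On log2 CPM, a scale chosen after seeing the data, Snai2 alone of the 10 genes passed, with a gap of 0.619 times the range of the controls, and the gaps were 0.274 for Twist1 and 0.482 times the range for Twist2.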

How the results depend on the processing

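None of the 10 genes was called under any of 11 alternative fits or when any of the 21 tumors was left out. The lowest adjusted p over the alternatives was 0.0869, for Twist2 against the 7 controls with a Gata4 loxP allele, and leaving out N-17 gave 0.0945. The count of all genes called, 43, moved more: 1439 with DESeq2, 438 with only those 7 controls, 27 with library size in place of TMM, 26 without the 3 squamous cell carcinomas, 19 without N-1, 8 without all 4 (an alternative chosen after seeing the data), and 3 each with counts summed per mouse, with voom and mouse as a random effect, and without mouse P497. Leaving out each tumor in turn gave 14 (without N-9) to 346 (without N-15). Fewer tumors or mice enter some of these fits, and for the rest the cause was not tested. With DESeq2, Hmga2, Foxa1 and Axl among the listed genes were called, and with only the 7 controls Foxa1 was (edgeR adjusted p = 0.0495).

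Directions that turned had log2 fold changes near 0 or rested on a few tumors. Vim, at -0.0005, became 0.0145 with library size, 0.0028 with DESeq2, 0.0111 without the count filter, 0.0148 per mouse, 0.15 with voom, 0.13 with only the Gata4 loxP controls and 0.0512 without the squamous cell carcinomas, and ran from -0.17 to 0.13 when each tumor was left out. Snai2 became -0.76 without the squamous cell carcinomas, Cdh2 -0.11 with voom, and Twist2 -0.0623 without these carcinomas and N-1. Snai2 ran from 0.17 (without R-13) to 1.90 (without N-1), Twist2 from 0.68 to 2.44 and Cdh2 from 0.12 (without R-12) to 1.27 (without N-8). Snai1, Zeb1, Zeb2, Prrx1 and Cdh1 kept their direction in all of these fits. The tumor numbers shared by the cohorts (1, 6, 7 and 15) name tumors, and tumors of the same number came from different mice. As a replicate block over those 8 tumors they gave 0 called genes, and log2 fold changes of 0.21 for Twist1, -0.16 for Snai2 and 0.37 for Vim, with adjusted p of 0.820 or more for all 10. The exact permutation tests kept direction and side under library size and a prior count of 0.5. None of the 7 correlations given as passing changed sign within a cohort, over mouse means, without N-1 or without 2 tumors. Low counts limit Twist2 (at least 13 reads) and Snai1 (at least 30) most.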
